A study of Mus musculus with 12 samples.

Results

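The colon epithelium of POR-null mice fed quercetin was compared with that of POR-null mice on the control diet. The comparison rested on 6 of the 12 arrays of the series, 3 for each diet, and on all 22626 of 22690 probe sets that are not array controls. Arrays entered by their titles, and no measured value chose them. The other 6 arrays came from wild type C57BL/6 mice on the same diets. They shared the estimate of the spread and gave values to set beside those of the null line. Both POR-null groups were male mice of a cytochrome P450 reductase null line labelled C57BL/6, aged 6 to 8 weeks. All of them ate a soya-free RM3 powder for 14 days. For the last 24 hours the control mice stayed on that powder, and the treated mice had quercetin mixed into it at 6200 ppm, labelled as 7 mg for each mouse. Every array carried RNA pooled from 3 mice, so that each group holds 9 mice in 3 pools, and the p-values measure the spread between pools together with that of the laboratory steps. Signal is given as the deposited log2 value of Affymetrix 430A arrays, on which a difference of 1 is a 2-fold difference.

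POR is the reductase that hands electrons to the microsomal cytochromes P450. In the line known by this name from the literature, Cre recombinase under the albumin promoter deletes the gene in hepatocytes, so that the liver lacks the enzyme while the gut is expected to keep it. Quercetin is a flavonol of onions, apples and tea. Gut epithelium conjugates it with glucuronic acid, sulfate and methyl groups and pumps the conjugates out through ABC transporters. In cultured cells it is known as a ligand of the aryl hydrocarbon receptor and as an inhibitor of several kinases, and it interferes with the heat shock response. The design asks whether 24 hours of dietary quercetin altered transcripts of the colon when hepatic P450 activity is low.

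The arrays were alike in overall signal. Their medians lay between 5.90 and 5.95, and correlations between POR-null arrays had a median of 0.990 within groups and of 0.990 between groups. Markers of the labelled tissue were high, and markers of some other tissues were also read. All 9 markers of colon epithelium were measured, and their mean stood between 10.87 and 11.06 in each of the 6 arrays, whereas 3 hepatocyte markers averaged 6.04 to 6.40. The 4 measured markers of small intestine averaged 8.7 to 9.6, and 5 of smooth muscle averaged 6.38 to 8.31. The purity of the samples was not tested. The first principal component was taken over all arrays of the series. On it control array 1 scored 24.2, against -9.9 to 9.8 for the other 5 POR-null arrays. The wild type scores are not given here. Control array 1 also had the highest B cell, macrophage and MHC class II signal of the 6 arrays. When arrays were weighted in the fit, control array 3 had the lowest weight of the series (0.45), and control array 1 had 0.61. Quercetin array 2 had the highest pancreatic enzyme signal and control array 3 the lowest smooth muscle signal. The transcript of the deleted gene was not analysed here. In bulk RNA of this kind, fewer cells of a type and less RNA per cell cannot be told apart.

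No transcript passed the adjusted threshold of 0.05. By limma 0 of 22626 probe sets (0.0%) were called, with a smallest adjusted p of 1.00. At an unadjusted p under 0.05 there were 637 probe sets (2.82%), of which 291 (1.29%) were higher on quercetin and 346 (1.53%) lower. This share is smaller than 0.05, the share that such a threshold gives when nothing differs. The 3 quercetin arrays lay wholly above or wholly below the 3 control arrays for 1528 probe sets (6.75%), 789 (3.49%) above and 739 (3.27%) below. With 3 arrays against 3, such separation is not rare when nothing differs. Without control array 3 the count at an unadjusted p under 0.05 was 1729, still with 0 called, and without quercetin array 1 a single probe set was called, that of Gbp2b, described with the immune genes. Among the 11317 probe sets with a mean signal at or above the median, 73 (0.645%) higher and 205 (1.81%) lower ones had such a p. The differences were small. The size of the difference had a median of 0.07, and 47 probe sets differed by 1 or more, 31 of them higher and 16 lower. The standard error had a median of 0.11. The pointwise 95% interval lay within 1 log2 unit of 0, a 2-fold difference, for 22232 probe sets (98.3%) and within 0.5 for 19963 (88.2%).

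Genes were also read as 38 lists, and the median difference of a list often rested on single arrays. Beside each median its left-out range is given, the lowest and highest median when each of the 6 arrays was left out in turn. Of 36 lists with a median other than 0 the sign held throughout in 14 and turned with at least 1 array left out in 22. It turned in 7 without both control array 1 and quercetin array 2, a choice made after seeing the data.

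The genes described first are the 15 of smallest unadjusted p in each direction among the brighter genes. Their differences in the POR-null arrays are therefore descriptions, since the same values chose them, and each had an adjusted p of 1.00 by limma. All of the 15 lower genes had 3 quercetin arrays below the 3 control arrays. Their differences ran from -1.58 to -0.27, with a median of -0.42. They hold regulators of transcription and RNA decay (Btg2, Atf3, Elf3, Zfp46, Cnot6l), receptors and sorting or signalling proteins (Sorl1, Sdc4, Il4ra, Gna13, Pde9a, Ptpn12, Ppp1r11) and genes of protein turnover and transport (Fbxo32, Dync1h1, Srprb).

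Btg2, an antiproliferative gene induced early after growth stimuli and by p53, had 9.05, 8.93 and 8.99 in the control arrays and 8.56, 8.46 and 8.50 in the quercetin arrays. The gap between the diets was wider than the spread within either of them. The difference was -0.48 (SE 0.11, 95% interval -0.73 to -0.24, n = 3 arrays per group). Atf3, a stress-induced transcription factor, had 8.30, 8.21 and 8.43 against 7.89, 7.95 and 7.78, again without overlap (-0.44, SE 0.12, interval -0.69 to -0.19). Elf3, an Ets factor of differentiating epithelium, had 10.44, 10.60 and 10.58 on control diet and 10.26, 10.12 and 10.06 on quercetin (-0.39, SE 0.10, interval -0.61 to -0.18). It was the brightest of the 15 at a mean of 10.39 over the 12 arrays, and has a single probe set. Cnot6l, a deadenylase that shortens poly(A) tails, had 9.31, 9.04 and 9.01 against 8.79, 8.81 and 8.73 (-0.34). Its other 3 probe sets gave -0.16 to 0.04. The zinc finger protein Zfp46 differed by -0.39, with -0.15 in its second probe set.

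Sorl1, a sorting receptor of the endosome and Golgi, had 9.52, 9.31 and 9.39 in the control arrays and 8.61, 8.88 and 8.94 in the quercetin arrays. Every quercetin array was below every control array, and the difference was -0.60 (SE 0.13, 95% interval -0.88 to -0.31, n = 3 arrays per group). The second Sorl1 probe set differed by -0.07. Sdc4, a heparan sulfate proteoglycan that serves as a co-receptor at focal adhesions, had 9.66, 8.54 and 8.54 against 7.47, 7.39 and 7.15. Control array 1 was more than 1 unit above the other control arrays, yet those too lay above all of the quercetin arrays. The difference was -1.58 (interval -2.44 to -0.72), whereas a second Sdc4 probe set gave 0.09. Gna13, the alpha subunit of a heterotrimeric G protein, had 8.59, 8.57 and 8.57 against 8.17, 8.26 and 7.94 (-0.45, SE 0.11). Its control values agreed within 0.02, and its other 5 probe sets ran from -0.36 to 0.14. Il4ra, the interleukin 4 receptor alpha chain, had 6.13, 6.09 and 6.17 against 5.56, 5.92 and 5.77 (-0.38), with 0.03 and 0.04 in its other probe sets.

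The remaining lower genes include Pde9a, a phosphodiesterase of cyclic GMP, with 9.66, 9.56 and 9.89 on control diet and 9.48, 9.19 and 9.19 on quercetin (-0.42). Fbxo32, a ubiquitin ligase known from muscle wasting, had 6.49, 6.24 and 6.80 against 5.95, 5.96 and 5.95 (-0.56, SE 0.17). Its quercetin values were nearly equal, whereas its control values were spread out. The phosphatase Ptpn12 differed by -0.36, with -0.26 to -0.09 in 3 further probe sets, so that all of its probe sets gave a negative value. The phosphatase inhibitor Ppp1r11 differed by -0.43, the dynein heavy chain Dync1h1 by -0.27 and Srprb, a subunit of the receptor for the signal recognition particle, by -0.31. Of 21 other probe sets of the 15 genes, 16 also gave negative differences, against 47.2% of all probe sets. They read the same genes on the arrays that chose them, so the count is not independent evidence.

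**Figure D1:**
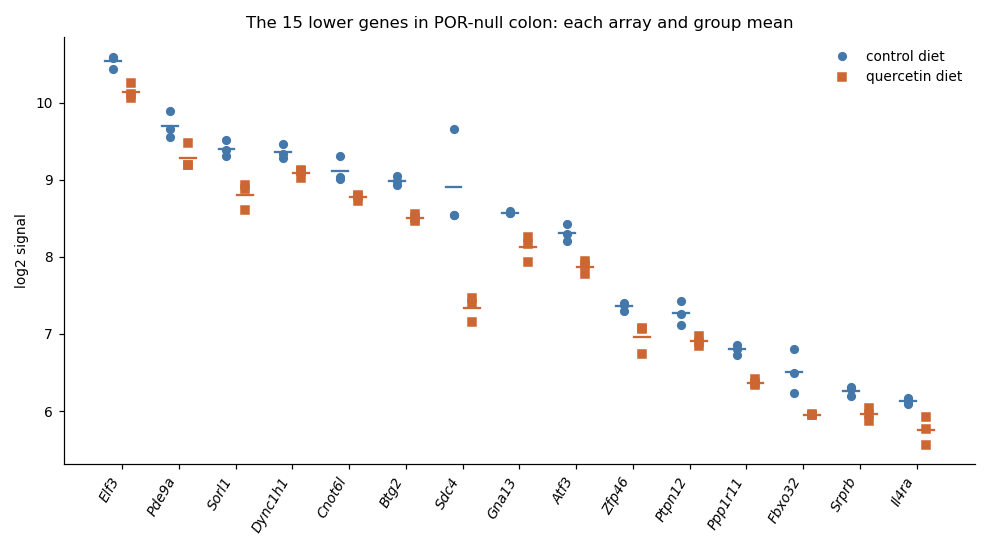
Log2 signal (y axis) of the 15 lower genes (x axis) in the 3 control arrays (circles) and the 3 quercetin arrays (squares) of POR-null mice, with a line at each group mean. The squares lie below the circles for all 15 genes, which were chosen from these same values, and Sdc4 has the widest gap (-1.58).

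Immediate early genes are transcribed within minutes of growth factor, cytokine or stress signals and most of their messages decay fast. All 30 listed were measured. Means were lower on quercetin for 19 and higher for 11, with a median difference of -0.06 (left-out range -0.08 to -0.04), against a lower mean in 47.1% and a higher mean in 52.1% of the 12393 genes measured (1 probe set per gene, 6.78% of them without overlap) and a median of 0.0067 over all probe sets. Of the 30, 6 were lower at an unadjusted p under 0.05 and 0 higher, where 1.48% and 1.08% of all genes were. The same number, 6, had quercetin arrays wholly below the control arrays, against 3.39% of all genes. With 1 array left out the count at that p was 4 to 6. None passed the adjusted threshold, and the smallest adjusted p was 1.00 by limma. The list was chosen with results of these arrays known, so the counts are not independent evidence of a direction.

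Beside Btg2 and Atf3, the members lowest by p were Mcl1 and Zfp36. Mcl1, a short-lived BCL2 family protein that keeps cells alive, had 10.29, 10.48 and 10.44 on control diet and 9.92, 10.02 and 9.91 on quercetin, without overlap. The difference was -0.45 (SE 0.15, interval -0.79 to -0.12), and its 5 other probe sets ran from -0.53 to -0.10. Zfp36, which encodes tristetraprolin, a protein that speeds decay of AU-rich messages, had 8.75, 8.94 and 8.88 against 8.56, 8.64 and 8.62 (-0.25, SE 0.09). Fos and Klf10, named here after their values were seen, were the other 2 of the 6. Fos, a subunit of the AP-1 factor, had 10.11, 10.34 and 9.98 against 9.68, 9.42 and 9.86 (-0.49, SE 0.22), and Klf10, a factor induced by TGF beta, differed by -0.43 with 1 quercetin array at 6.71 above a control array at 6.64. Jun, Ier2 and Dusp1, early response genes also chosen after their values were seen, differed by -0.12, -0.05 and 0.02. The mean of the 30 genes was 7.86, 7.83 and 7.77 in the control arrays and 7.74, 7.67 and 7.71 in the quercetin arrays. The arrays of the 2 diets did not overlap, but the lowest control and the highest quercetin array were only 0.03 apart.

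Several early response genes are reached through CREB, which binds the palindrome TGACGTCA. That sequence was looked for, on both strands, in RefSeq promoter windows of GRCm38.p6, which run from 250 bases before to 50 bases after the gene start. It occurred in 2.03% of 27025 genes and in 2.99% of the 9887 genes with a tested probe set. Among the 23 immediate early genes with a window it occurred in 2 (8.70%), Btg2 and Dusp1. Those 2 genes differed by -0.48 and 0.02. The Btg2 window is shown because Btg2 is the immediate early gene with the smallest p and holds the match. It lies at chr1:134079106-134079405 on the minus strand, with the match in capitals, beginning 166 bases before the start.
Btg2: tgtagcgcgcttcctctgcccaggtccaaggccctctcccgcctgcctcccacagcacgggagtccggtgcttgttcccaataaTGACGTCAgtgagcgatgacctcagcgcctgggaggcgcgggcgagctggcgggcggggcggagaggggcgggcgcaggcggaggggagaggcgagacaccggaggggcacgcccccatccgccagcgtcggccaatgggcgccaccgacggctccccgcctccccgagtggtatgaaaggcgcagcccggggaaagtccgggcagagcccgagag
A match is a description of the letters and does not show that a factor binds there.

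Signalling lists near these genes gave small differences. Of 23 measured genes of the EGF receptor family with its ligands and feedback inhibitors, 14 were lower and 8 higher (median -0.05, left-out range -0.09 to -0.0067). Adam17, the protease that sheds EGF receptor ligands, had 7.35, 6.98 and 7.06 against 6.79, 6.72 and 7.01 (-0.29). Errfi1, a feedback inhibitor of the receptor, had 8.94, 8.69 and 8.85 against 8.63, 8.60 and 8.57 (-0.23). The array means of this list ran from 6.88 to 6.94 on control diet and from 6.85 to 6.87 on quercetin. Syndecans and the enzymes that build heparan sulfate were lower in 5 of 13 cases and higher in 8 (median 0.01, left-out range -0.05 to 0.03, negative without control array 3, quercetin array 2 or quercetin array 3). In that list Sdc4 and Ext1, a heparan sulfate polymerase (7.36, 7.48 and 7.20 against 7.09, 7.17 and 6.75, difference -0.34), were the members with an unadjusted p under 0.05. Of 21 p53 targets and apoptosis regulators 14 were lower (median -0.05, left-out range -0.09 to -0.03), with Btg2 and Mcl1 leading again. The cell cycle inhibitor Cdkn1a, a central p53 target, differed by -0.14 (interval -0.31 to 0.02).

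Heat shock genes are of interest because quercetin is used in culture to block their induction. Of 22 measured, 15 were lower and 6 higher (median -0.06, left-out range -0.16 to 0.0083, positive without control array 2), and 0 had an unadjusted p under 0.05. The inducible chaperone Hspa1b had 7.59, 8.33 and 7.46 on control diet and 7.39, 6.89 and 7.21 on quercetin. Its arrays did not overlap, but control array 2 was far above the rest, and the interval of the difference ran from -1.43 to 0.17. Its other 2 probe sets gave -0.63 and -0.50. The constitutive chaperone Hspa8 differed by -0.31 (interval -0.68 to 0.06) and the co-chaperone Bag3 by -0.27 (interval -0.63 to 0.09). Circadian clock genes, which follow the hour of sampling, were lower in 9 and higher in 10 of 19 cases (median 0.02, left-out range -0.06 to 0.11, negative without control array 1). Among them Per2 differed by -0.17 and Nr1d1 by 0.29, with intervals of -0.47 to 0.14 and -0.39 to 0.97.

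Hypoxia-inducible genes are switched on by the HIF transcription factors when oxygen is low. HIF alpha subunits are marked for degradation by oxygen-dependent prolyl hydroxylases, which flavonols can inhibit in vitro, and colon epithelium, next to an anoxic lumen, has a basal activity of this pathway. Of 26 genes listed 24 were measured, and 23 had a lower mean on quercetin (95.8%), with 1 higher, the adenylate kinase Ak4. The median difference was -0.11 (left-out range -0.20 to -0.09). An unadjusted p under 0.05 was found for 4, all lower (1.48% of all genes), and 3 had quercetin arrays wholly below the controls (3.39% of all genes). With 1 array left out that count of 4 ran from 0, without control array 2, to 5, without control array 1, and was 1 without quercetin array 2. The number of lower genes ran from 18 of 24 (without control array 2 or quercetin array 3) to 24 of 24. None passed the adjusted threshold (smallest adjusted p 1.00 by limma). This list too was chosen with results of these arrays known, and its direction is not independent evidence.

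Egln3, a prolyl hydroxylase that is itself a HIF target, had 8.34, 8.92 and 8.01 in the control arrays and 7.94, 7.84 and 7.78 in the quercetin arrays. The control pools varied by nearly 1 unit, and the lowest of them was just above the highest quercetin pool. The difference was -0.57 (SE 0.20, 95% interval -1.01 to -0.13), and the second probe set gave -0.63. Bnip3, a mitophagy receptor, had 7.02, 7.72 and 7.30 against 6.99, 6.82 and 7.02 (-0.40, SE 0.16), with the lowest control equal to the highest quercetin value. P4ha1, a subunit of the collagen prolyl hydroxylase, had 5.81, 6.09 and 5.93 against 5.52, 5.50 and 5.86 (-0.32), and a second probe set gave -0.08. Ero1a, the oxidase that drives disulfide formation in the endoplasmic reticulum, had 8.42, 8.43 and 8.24 against 8.15, 8.19 and 8.00 (-0.25), without overlap and with -0.30 and -0.26 in its other probe sets. Control array 2 was the highest of the 6 arrays for each of these 4 genes.

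Other members are given after their values were seen. The mTOR inhibitor Ddit4 had 8.44, 8.61 and 8.42 against 7.84, 8.00 and 8.28, without overlap (-0.45, interval -0.91 to 0.01). The textbook targets Vegfa, Slc2a1, Pdk1 and Car9 differed by -0.10, -0.12, -0.10 and -0.03, and Hif1a itself by -0.20 (interval -0.73 to 0.32). The mean of the 24 genes was 7.72, 7.90 and 7.85 in the control arrays and 7.70, 7.64 and 7.66 in the quercetin arrays. The gap between control array 1 and quercetin array 1 was therefore narrow. Without control array 1 all 24 genes were lower (median -0.20), without control array 2 18 were (median -0.13), and without control array 1 and quercetin array 2 together 23 were (median -0.17).

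**Figure D2:**
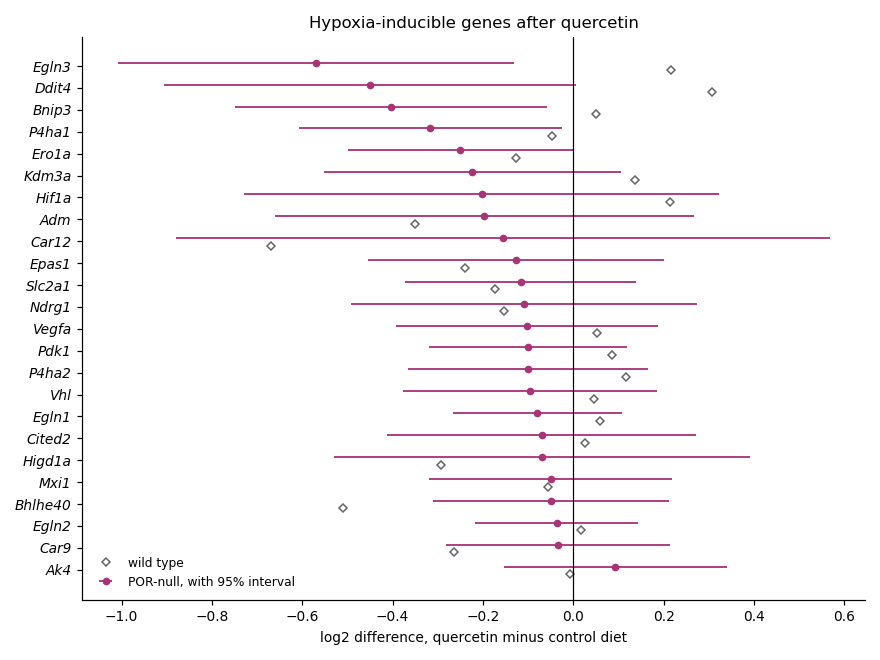
Log2 difference, quercetin minus control diet (x axis), for the 24 measured hypoxia-inducible genes (y axis). Circles and bars are POR-null differences with pointwise 95% intervals, and open diamonds are wild type differences. Of the circles 23 lie left of 0, and the wild type diamonds lie on both sides (12 lower, 12 higher).

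ACGTG is a form of the core that HIF binds, and genes without these letters may hold another form. In the same promoter windows, searched on both strands, ACGTG occurred in 16 of 21 hypoxia-inducible genes (76.2%) and in 12 of 17 glycolytic genes (70.6%). It occurred in 21.8% of all 27025 genes and in 26.9% of the 9887 genes with a tested probe set. Across the array 2662 of the 9887 tested genes held the core, and 1348 of these were lower (median difference -0.0033). Of the remaining tested genes 3342 were lower (median 0.01), a smaller share of a larger group. Of the 16 hypoxia-inducible genes with the core 15 were lower, as were 5 of 5 without it. The windows of the 4 members with an unadjusted p under 0.05 follow, with the matched letters in capitals (CACGT is the core read on the opposite strand, and in Bnip3 the core lies on both strands of CACGTG). They are chr12:54203825-54204124 (minus strand) for Egln3, chr7:138909457-138909756 (minus) for Bnip3, chr10:59323046-59323345 (plus) for P4ha1 and chr14:45318523-45318822 (minus) for Ero1a.
Egln3: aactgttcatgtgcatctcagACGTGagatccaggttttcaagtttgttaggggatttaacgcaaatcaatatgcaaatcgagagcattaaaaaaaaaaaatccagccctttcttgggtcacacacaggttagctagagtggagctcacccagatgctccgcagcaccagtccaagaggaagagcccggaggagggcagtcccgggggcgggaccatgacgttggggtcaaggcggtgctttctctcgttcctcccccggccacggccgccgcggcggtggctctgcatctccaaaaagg
Bnip3: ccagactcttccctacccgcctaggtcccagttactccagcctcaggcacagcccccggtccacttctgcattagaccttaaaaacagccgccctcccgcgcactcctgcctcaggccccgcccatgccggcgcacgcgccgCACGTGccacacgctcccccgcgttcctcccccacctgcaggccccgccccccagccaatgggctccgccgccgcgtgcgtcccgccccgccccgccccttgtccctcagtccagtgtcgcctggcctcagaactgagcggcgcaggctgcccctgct
P4ha1: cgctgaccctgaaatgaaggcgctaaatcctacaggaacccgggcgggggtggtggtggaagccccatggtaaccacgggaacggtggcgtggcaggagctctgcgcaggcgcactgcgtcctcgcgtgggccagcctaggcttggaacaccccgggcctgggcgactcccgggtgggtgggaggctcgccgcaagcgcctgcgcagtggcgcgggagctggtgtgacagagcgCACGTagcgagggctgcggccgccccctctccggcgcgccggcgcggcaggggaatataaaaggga
Ero1a: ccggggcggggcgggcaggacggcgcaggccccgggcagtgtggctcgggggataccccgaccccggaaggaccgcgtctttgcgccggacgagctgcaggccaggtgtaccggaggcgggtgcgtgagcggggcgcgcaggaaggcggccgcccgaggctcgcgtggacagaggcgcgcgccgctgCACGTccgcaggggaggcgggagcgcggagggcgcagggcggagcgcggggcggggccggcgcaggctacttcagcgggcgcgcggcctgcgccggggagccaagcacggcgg

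Glycolytic enzymes, many of them HIF targets, had lower means in 14 of 17 cases (median -0.10, left-out range -0.17 to -0.04), namely 9 of the 12 with the core and 5 of 5 without it. Hk2, the inducible hexokinase, had 9.96, 9.86 and 9.36 in the control arrays and 9.36, 9.25 and 9.36 in the quercetin arrays. Control array 3 was level with quercetin arrays 1 and 3, so the groups touched, and the difference was -0.40 (SE 0.16, interval -0.74 to -0.07). Ldha, which makes lactate from pyruvate, had 11.92, 12.03 and 12.02 against 11.80, 11.90 and 11.71, without overlap (-0.19, SE 0.09). Hk1 differed by -0.22 and the muscle phosphofructokinase Pfkm by 0.14. Respiratory chain and ATP synthase subunits, encoded in the nucleus, were lower in 29 and higher in 15 of 45 cases with a median of -0.02 (left-out range -0.05 to 0.01, positive without control array 1 or quercetin array 3), and all 45 intervals lay within 1 unit of 0. Cycs, cytochrome c, had the smallest p of them (0.13, interval -0.10 to 0.36).

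Chaperones of the endoplasmic reticulum are raised by the unfolded protein response, and goblet cells, with their load of mucin, keep many of them high. All 29 listed genes were measured. Lower means were found for 25 and higher for 4, with a median of -0.13 (left-out range -0.18 to -0.06, nearest to 0 without control array 1), yet 0 had an unadjusted p under 0.05. All 29 intervals lay within 1 unit of 0. Syvn1, the ubiquitin ligase of ER-associated degradation, had 8.53, 8.52 and 8.25 on control diet and 8.19, 8.24 and 8.20 on quercetin, without overlap (-0.22, interval -0.47 to 0.02). Its partner Sel1l had 7.91, 7.76 and 7.71 against 7.52, 7.78 and 7.49 (-0.20). The secreted chaperones Creld2 and Manf differed by -0.28 and -0.24, and the main luminal chaperone Hspa5, outside the rule for named genes, had 10.82, 10.73 and 10.17 against 10.05, 10.50 and 10.51 (-0.22, interval -0.57 to 0.13). Control array 3 and quercetin array 1 were the low arrays of the list, with means of 8.20 and 8.15 against 8.31 to 8.47 elsewhere, and the diets overlapped. In the same 2 arrays goblet cell genes were also lowest (9.81 and 9.71 against 9.99 to 10.23 in the other 4), and the part of goblet cells in the chaperone values was not tested.

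The ER stress element, CCAAT and CCACG with 9 bases of any kind between them, is bound by ATF6 together with NF-Y. It occurred in 37 of 27025 genes (0.137%) and in 0.182% of the 9887 genes with a tested probe set. In the list it occurred in 8 of 25 genes with a promoter window (32.0%). All 8 had a lower mean on quercetin, with a median of -0.15, and the 17 others had a median of -0.13. Across the array the element is rare, in 18 tested genes, of which 13 were lower, the 8 of this list among them. The windows of Syvn1 (chr19:6046326-6046625, plus strand), Creld2 (chr15:88819396-88819695, plus strand) and Hspa5 (chr2:34771840-34772139, plus strand) are shown as examples, with the fixed letters of the element in capitals. In Creld2 the element lies on the opposite strand, so that it reads CGTGG before ATTGG.
Syvn1: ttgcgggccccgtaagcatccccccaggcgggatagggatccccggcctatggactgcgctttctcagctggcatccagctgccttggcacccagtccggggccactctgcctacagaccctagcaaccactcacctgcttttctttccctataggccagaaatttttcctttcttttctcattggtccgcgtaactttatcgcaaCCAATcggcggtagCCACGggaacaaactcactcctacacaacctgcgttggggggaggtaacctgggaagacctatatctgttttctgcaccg
Creld2: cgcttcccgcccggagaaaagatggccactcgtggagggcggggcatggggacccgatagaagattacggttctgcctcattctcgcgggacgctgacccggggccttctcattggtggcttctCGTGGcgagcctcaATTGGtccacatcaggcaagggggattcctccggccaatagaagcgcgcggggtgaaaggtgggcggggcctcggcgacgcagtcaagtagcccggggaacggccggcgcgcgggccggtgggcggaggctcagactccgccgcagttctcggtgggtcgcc
Hspa5: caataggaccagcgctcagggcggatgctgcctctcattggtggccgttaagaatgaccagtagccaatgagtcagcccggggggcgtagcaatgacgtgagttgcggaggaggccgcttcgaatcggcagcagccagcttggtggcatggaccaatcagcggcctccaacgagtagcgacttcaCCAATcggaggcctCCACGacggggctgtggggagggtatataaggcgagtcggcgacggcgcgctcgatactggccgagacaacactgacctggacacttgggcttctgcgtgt

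The 15 genes that stood higher on quercetin had, by their medians, smaller differences and lower signal than the 15 lower ones. For 13 of the 15 the quercetin arrays lay above all of the control arrays. Differences ran from 0.23 to 4.57 with a median of 0.29, and mean signal had a median of 6.77 against 8.35 for the 15 lower genes. ND5, a complex I subunit encoded by mitochondrial DNA, was the brightest with 12.34, 12.40 and 12.72 in the control arrays and 12.74, 12.78 and 12.78 in the quercetin arrays. Its quercetin values were almost equal, control array 3 was close to them, and the difference was 0.28 (SE 0.10, 95% interval 0.07 to 0.49). Gpd1, the cytosolic glycerol phosphate dehydrogenase, had 6.34, 6.35 and 6.43 against 6.71, 6.93 and 6.57 (0.36, SE 0.13), with 0.07 to 0.16 in 3 other probe sets. Tpmt, which methylates thiopurine drugs, had 6.08, 6.79 and 6.53 against 7.06, 6.70 and 6.89, and its groups overlapped (0.42, SE 0.15). Noc3l, a nucleolar protein of ribosome assembly, had 6.64, 6.74 and 6.77 against 6.97, 6.94 and 7.02 (0.26, SE 0.09). The activin subunit Inhbb had 6.69, 6.86 and 6.76 against 6.99, 7.00 and 7.01 (0.23), and its second probe set gave -0.09.

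Among the others, Ptprv (0.27), Gpr12 (0.27), Aanat (0.25) and Mmp24 (0.26) are genes known mainly from other tissues, such as Aanat, the melatonin pathway enzyme of the pineal gland. Their quercetin and control arrays did not overlap. Their signal was between 6.04 and 7.31 in the 6 arrays, between the median of an array (5.90 to 5.95) and about its upper quartile (7.27 to 7.34). The membrane protein Emp2 differed by 0.45 and the peroxisomal protease Tysnd1 by 0.29, the second with -0.12 in its other probe set. Lims1, an adaptor of integrin signalling, differed by 0.30, and 1810055G02Rik by 0.45. Of 17 other probe sets of the 15 genes, 12 also gave positive differences, against 52.1% of all probe sets. These too come from the arrays that chose the genes. The highest value of the 15 belonged to Cela3b, a pancreatic elastase, which is described with the pancreatic enzymes. It counted among the brighter genes only through arrays in which it was high.

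Xenobiotic response genes were looked at because quercetin is an aryl hydrocarbon receptor ligand and a substrate of conjugating enzymes. None of 9 genes chosen for this purpose passed the adjusted threshold (adjusted p 1.00 by limma). Cyp1a1, the most responsive target of the receptor, had 5.80, 6.16 and 6.13 in the control arrays and 6.16, 5.95 and 5.97 in the quercetin arrays. The groups overlapped fully, and the interval of the difference ran from -0.26 to 0.25, well inside a 2-fold difference. Its signal was near the median of an array (5.90 to 5.95), and whether the transcript was detected was not tested. Cyp1b1, another target, had 6.49, 5.68 and 6.13 against 5.73, 5.77 and 5.82 (-0.33, interval -0.67 to 0.02), with control array 1 highest. Over 9 measured genes of the receptor pathway 6 were lower (median -0.01, left-out range -0.10 to 0.03, positive without control array 3), 0 were without overlap, and the repressor Tiparp differed by -0.15 and the receptor Ahr by -0.18. Only 3 of the 9 had a mean signal at or above the median of all probe sets. The core letters of the element that the receptor binds, GCGTG, occurred in 5 of 7 promoter windows of the list (71.4%), against 35.2% of 27025 genes and 50.2% of the 9887 with a tested probe set.

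NRF2, the factor that answers to electrophiles, has Nqo1 and Hmox1 among its targets. Nqo1, a quinone reductase, had 6.67, 6.10 and 6.17 on control diet and 6.43, 6.67 and 6.32 on quercetin (0.16, interval -0.34 to 0.66). Hmox1, heme oxygenase, had 5.66, 5.83 and 5.94 against 5.77, 5.90 and 5.96 (0.07, interval -0.14 to 0.27). Both overlapped between diets, and Hmox1 too lay near the median of an array (5.90 to 5.95). Of 25 NRF2 targets 16 were higher and 9 lower (median 0.02, left-out range -0.03 to 0.11, negative without control array 3 or quercetin array 2), and each of the 25 intervals lay within 1 unit of 0. The members with the smallest p were the glutathione peroxidase Gpx1 (-0.14), the cystine carrier Slc7a11 (0.12) and catalase, Cat (0.24).

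Genes of flavonol conjugation had mostly higher means. Of 16 measured, 13 were higher and 3 lower (median 0.15, left-out range 0.04 to 0.22), with 0 at an unadjusted p under 0.05. Sult1a1, a phenol sulfotransferase that sulfates quercetin, had 9.52, 9.63 and 10.15 in the control arrays and 10.15, 10.52 and 10.34 in the quercetin arrays. Control array 3 equalled the lowest quercetin array, and the difference was 0.57 (interval -0.10 to 1.24). Sult1d1, a related sulfotransferase, had 9.61, 9.63 and 9.73 against 9.98, 10.06 and 9.87 (0.31, interval -0.09 to 0.71), without overlap and with 0.25 in its second probe set. Ugdh, which supplies UDP-glucuronic acid, had 10.88, 10.69 and 11.01 against 11.15, 11.25 and 10.61 (0.14). The highest value of the list was that of Lct, the brush border lactase that also splits flavonol glucosides, with 7.05, 6.04 and 4.56 against 6.79, 7.50 and 6.40 (1.01, interval -0.58 to 2.61). Lct marks small intestine, and the genes of that tissue also had higher means. List means were 8.19, 8.16 and 8.05 against 8.30, 8.50 and 8.20. Without quercetin array 2 the median was 0.04, with 13 of 16 still higher.

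Efflux transporters showed no shared direction, 6 of 12 higher and 6 lower (median 0.06, left-out range 0.0075 to 0.13). Abcc2, an apical exporter of conjugates, had 3.66, 3.94 and 3.94 on control diet and 4.23, 4.65 and 4.01 on quercetin, without overlap (0.45, SE 0.19, interval 0.03 to 0.87). It lay below the lower quartile of the array (4.66 to 4.76) in 6 of 6 arrays, so the signal is weak. Abcg2, the apical transporter of quercetin conjugates, had 9.07, 8.51 and 9.29 against 8.95, 8.81 and 8.72 (-0.13, interval -0.58 to 0.32). Abcb1a, P-glycoprotein, had 10.59, 10.59 and 10.88 against 11.14, 11.03 and 10.45 (0.19, interval -0.25 to 0.62), with the highest and the lowest of the 6 values both on quercetin. Cytochromes P450 were higher in 21 of 29 cases (median 0.04, left-out range -0.03 to 0.14), and 0 were without overlap. Without control array 1 13 were higher and 16 lower. With all arrays the P450 differences ran from -0.46 to 1.04, and 25 of the 29 intervals lay within 1 unit of 0. Cyp3a13, bright in this tissue, had 9.15, 9.26 and 9.70 against 9.84, 9.78 and 9.60 (0.37, interval -0.09 to 0.83), and Cyp2b10, a target of the receptor CAR, differed by 0.36. Glutathione transferases were higher in 14 of 19 cases (median 0.04, left-out range -0.02 to 0.11, negative without control array 3), led by Gsta4 (0.27) and Gstm3 (0.17), with Gsta3 at -0.26. Nuclear receptors of xenobiotics and lipids were higher in 11 of 17 (median 0.07, left-out range -0.03 to 0.10, negative without control array 1 or quercetin array 1), all within 0.18 of 0.

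**Figure D3:**
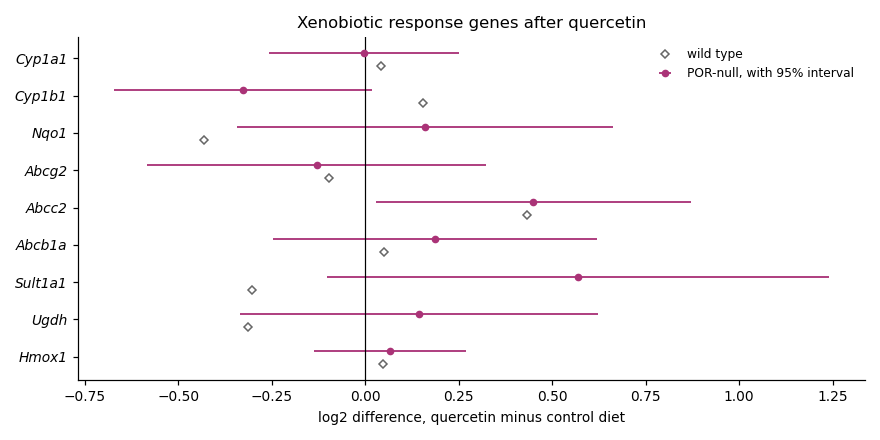
Log2 difference, quercetin minus control diet (x axis), of the 9 measured xenobiotic response genes chosen for quercetin (y axis). Circles and bars are POR-null differences with pointwise 95% intervals, and open diamonds are wild type differences. The intervals of 8 of the 9 genes include 0, and that of Abcc2 runs from 0.03 to 0.87.

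By their list medians lipid genes differed little. Of 28 fatty acid oxidation genes and PPAR alpha targets 18 were higher (median 0.04, left-out range -0.01 to 0.09, negative without quercetin array 2), with the peroxisomal Ehhadh at 0.37 (6.24, 6.04 and 6.33 against 6.65, 6.86 and 6.20) and the lipid droplet protein Plin2 at -0.18. The differences of these 28 genes ran from -0.18 to 0.83, and 26 of the 28 intervals lay within 1 unit of 0. Cholesterol synthesis and uptake genes were split 11 to 11 (median 0.00, left-out range -0.07 to 0.07). The sterol carrier Stard4 had 9.04, 9.14 and 9.00 against 8.61, 8.93 and 8.93, without overlap (-0.24, SE 0.10), while the synthesis enzyme Dhcr7 differed by -0.17 and overlapped. Of 20 lipogenic genes 13 were lower (median -0.04, left-out range -0.07 to 0.0067, positive without control array 2). The desaturase Scd1 had 9.27, 8.60 and 7.05 in the control arrays and 7.78, 7.48 and 7.13 in the quercetin arrays. The control pools spread over more than 2 units, and the difference of -0.84 had an interval of -1.81 to 0.12.

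The epithelium itself gave few differences. Absorptive colonocyte and ion transport genes were higher in 17 of 27 cases (median 0.02, left-out range -0.03 to 0.05, negative without control array 1, control array 3 or quercetin array 2), with the water channel Aqp8 at 10.82, 9.76 and 11.14 against 9.58, 10.17 and 10.40 (-0.52, interval -1.25 to 0.21). Goblet cell and mucus genes were lower in 13 of 17 (median -0.08, left-out range -0.18 to 0.10, positive without quercetin array 1). The mucus protein Fcgbp had 13.61, 13.62 and 13.55 against 13.12, 13.14 and 13.72 (-0.27), where quercetin array 3 was highest of all. Proliferation genes were lower in 20 of 27 (median -0.07, left-out range -0.20 to 0.05, positive without control array 1 or quercetin array 1) with 0 without overlap, and the mitotic activator Cdc20 differed by -0.22. Wnt targets and crypt stem genes had a median of -0.01 over 19 genes (left-out range -0.03 to 0.02, positive without control array 1, control array 3 or quercetin array 2). Of 25 tight junction and adhesion genes 13 were lower (median -0.01, left-out range -0.07 to 0.01, positive without control array 2 or 3), led by Sdc4 and by the hemidesmosome integrin Itgb4 (8.46, 8.84 and 8.69 against 8.44, 8.46 and 8.33, difference -0.25). Enteroendocrine genes were higher in 19 of 22 (median 0.11, left-out range 0.04 to 0.16), and in 14 of 22 without control array 1, where the median was lowest. The array means of these hormone genes were 6.12, 6.27 and 6.31 against 6.32, 6.36 and 6.33, so that control array 3 and quercetin array 1 were almost level. Somatostatin, Sst, had 6.09, 6.22 and 6.22 against 6.27, 6.42 and 6.47 (0.21, interval -0.10 to 0.52).

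Epithelial defence genes held the acute phase proteins serum amyloid A, which colon epithelium makes in response to bacteria and cytokines. Saa1 is read by 2 probe sets, and its sequence is so close to that of Saa2 that they may share signal. In the brighter one Saa1 had 11.51, 11.70 and 12.17 on control diet and 10.07, 11.15 and 11.67 on quercetin (-0.83, interval -1.60 to -0.06), with overlap. In the dimmer one, chosen for its size, it had 10.84, 10.99 and 11.48 against 9.09, 10.39 and 10.72, without overlap (-1.04, interval -1.88 to -0.20). Saa2 had 8.30, 8.58 and 9.18 against 7.53, 8.04 and 8.40 (-0.70, interval -1.31 to -0.09). Quercetin array 1 was the lowest of the 6 arrays in all of these probe sets and control array 3 the highest. Over the 25 genes of the list 15 were lower (median -0.10, left-out range -0.14 to 0.005, positive without control array 3). The lectin Itln1 went the other way with 10.95, 9.54 and 7.90 against 10.33, 10.89 and 12.19 (1.67, interval -0.12 to 3.46).

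**Figure D4:**
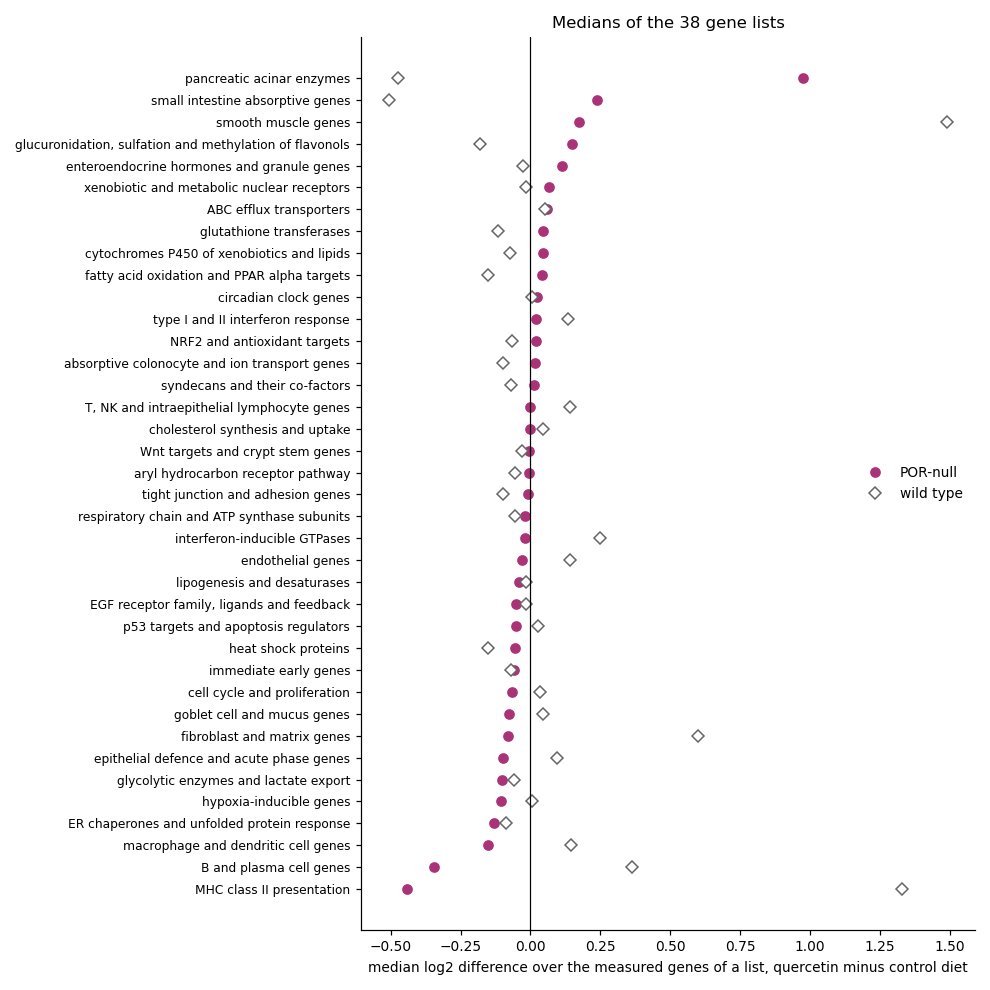
Median log2 difference, quercetin minus control diet (x axis), over the measured genes of each of the 38 gene lists (y axis), in POR-null mice (circles) and wild type mice (open diamonds). Apart from lists of other cells and of small intestine, POR-null medians lie between -0.13 and 0.15.

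Genes of other cells differed by the most and followed single arrays. Pancreatic acinar enzymes had array means of 6.93, 6.98 and 6.88 on control diet and 7.17, 9.16 and 7.14 on quercetin. Of 20 measured, 14 were higher and 6 lower (median 0.98, left-out range 0.24 to 1.44). The unadjusted p was under 0.05 for 6 higher ones (1.08% of all genes), and 9 had quercetin arrays wholly above the controls (3.39% of all genes). That count of 6 was 0 without control array 1, control array 2 or quercetin array 2, 1 without control array 3, and 8 and 12 without quercetin arrays 1 and 3. The carboxypeptidase Cpb1 had 5.22, 5.07 and 5.18 against 6.54, 10.29 and 5.78 (2.38, SE 1.01). Cela3b had 3.75, 4.47 and 4.0 against 8.24, 11.88 and 5.82 in the probe set of the smallest p (4.57, SE 1.60), and 6.23, 6.41 and 6.34 against 7.78, 11.09 and 6.68 in its brightest (2.19, SE 0.96). The proteases Ctrb1 and Prss2 and the lipase Cel differed by 1.85, 1.62 and 1.38. For all of them quercetin array 2 was highest, array 1 next and array 3 last, and each of the 3 lay above the controls. On control diet Cela3b (in the probe set of the smallest p), Cpb1 and Cel averaged 4.07, 5.16 and 5.40, below the median signal of 5.94. These genes met the rule for brighter genes only through arrays in which they were high. Without quercetin array 2 the list median was 0.24, with 15 of 20 higher. Small intestine genes were higher in 16 of 21 cases (median 0.24, left-out range 0.10 to 0.30), such as the adenosine deaminase Ada with 7.38, 7.09 and 6.88 against 7.77, 8.32 and 7.83 (0.86) and the glucose carrier Slc5a1 with 8.88, 8.89 and 8.91 against 9.06, 9.21 and 9.00 (0.20). Without quercetin array 2 their median was 0.10. The part of pancreatic and small intestinal RNA in other results was not tested.

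Immune genes were highest in control array 1. MHC class II genes had means of 8.52, 7.72 and 7.79 on control diet and 7.52, 7.52 and 7.77 on quercetin, and all 9 were lower (median -0.44, left-out range -0.53 to -0.23). The invariant chain Cd74 had 10.70, 9.64 and 9.34 against 8.97, 9.32 and 9.48 (-0.64, interval -1.72 to 0.44). B and plasma cell genes had means of 7.51, 6.83 and 6.75 against 6.60, 6.42 and 6.86, with 18 of 21 lower (median -0.34, left-out range -0.42 to -0.15), and the B cell receptor subunit Cd79b had 8.81, 6.50 and 6.89 against 6.15, 5.93 and 6.60 (-1.17). Macrophage and dendritic cell genes were lower in 21 of 26 (median -0.15, left-out range -0.22 to -0.08). All 3 medians were nearest to 0 without control array 1, and without quercetin array 2 as well they were -0.10, -0.12 and 0.00. Genes named for the size of their difference went the same way. The leukocyte actin regulator Coro1a had 8.41, 6.18 and 6.23 against 5.80, 5.69 and 6.14 (-1.06), the cytokine Ltb 7.73, 5.66 and 5.67 against 5.50, 5.46 and 5.55 (-0.85), and Clu, clusterin, 8.39, 7.05 and 7.10 against 6.73, 6.50 and 6.64 (-0.89). For these 3 the other control arrays were much nearer to the quercetin arrays than to control array 1.

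T and NK cell genes were split 12 to 12 (median 0.00, left-out range -0.03 to 0.03). Within them the granzymes, killer proteases of intraepithelial lymphocytes, stood higher on quercetin, with Gzma at 6.85, 7.30 and 7.05 against 7.40, 7.83 and 7.81 (0.61, interval -0.14 to 1.36) and Gzmb at 6.39, 6.16 and 6.30 against 6.46, 7.32 and 6.72 (0.55, interval -0.07 to 1.17). Both had no overlap. Il7r, the receptor of naive and memory T cells, had 5.83, 4.67 and 4.85 against 4.63, 4.23 and 4.80 (-0.56). Interferon response genes were higher in 12 of 23 (median 0.02, left-out range -0.07 to 0.06, negative without control array 2, quercetin array 1 or quercetin array 2). Gbp2b, an interferon-induced GTPase, had 5.33, 4.96 and 5.04 against 5.25, 7.47 and 7.86, so that 2 quercetin pools were more than 2 units above the other 4 arrays while 1 was level with them. The difference was 1.75 (interval 0.75 to 2.75), and the other interferon-inducible GTPases were lower in 6 of 10 cases, among them Irgm2 (-0.29) and Gbp7 (-0.21). The median of all 11 was -0.02 (left-out range -0.27 to 0.04, positive without control array 3 or quercetin array 3). Gbp2b was called by limma only without quercetin array 1 (2.56, adjusted p 9.925e-06, and 0.4997 to 1.00 in the other fits).

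Smooth muscle genes had means of 7.59, 7.73 and 6.37 on control diet and 7.71, 7.37 and 7.38 on quercetin. Control array 3 was the low one, and 14 of 15 genes were higher (median 0.17, left-out range -0.20 to 0.51, negative without control array 3), with Tagln at 8.34, 8.56 and 6.56 against 8.80, 8.06 and 8.52 (0.64, interval -1.04 to 2.32). Fibroblast and matrix genes were lower in 18 of 25 (median -0.08, left-out range -0.40 to 0.08, positive without control array 1 or quercetin array 2). Without both of those arrays 22 of 25 were higher (median 0.18). Endothelial genes were lower in 14 of 18 (median -0.03, left-out range -0.11 to 0.03), and higher in 12 of 18 without quercetin array 2 and in 13 of 18 without both arrays. Without both, the hypoxia and immediate early lists had medians of -0.17 and -0.10. The part of the cell mix in those lists was not tested further.

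**Figure D5:**
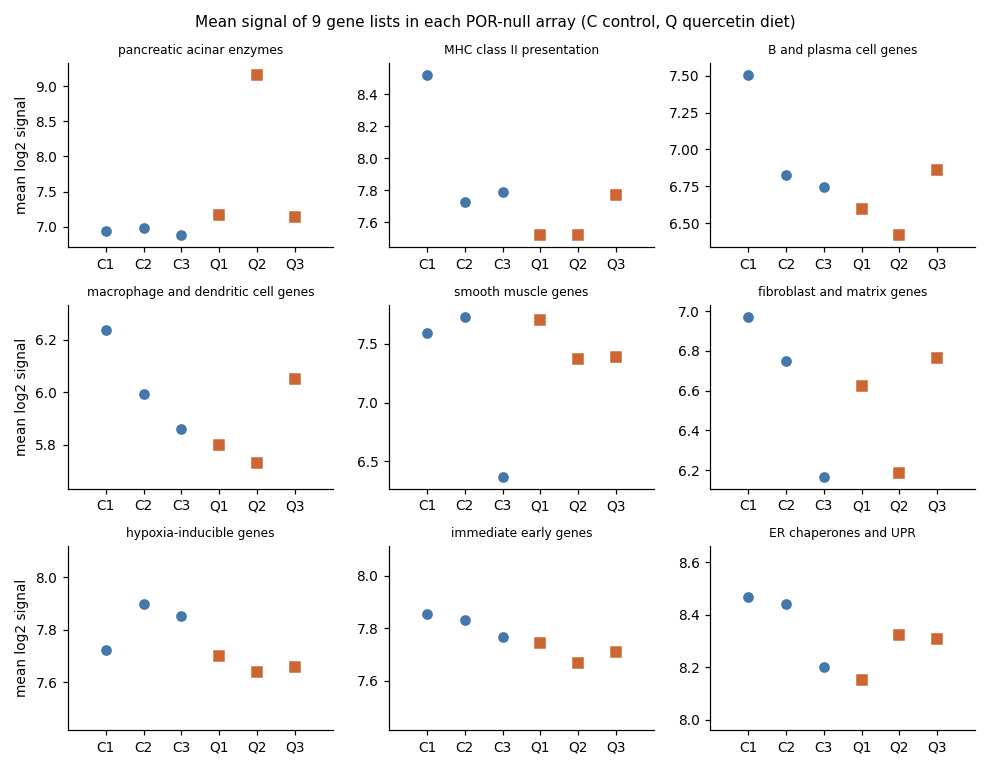
Mean log2 signal (y axis, scaled to each panel) of 9 gene lists in the 3 control arrays (C1 to C3, circles) and the 3 quercetin arrays (Q1 to Q3, squares) of POR-null mice (x axis). Acinar enzymes peak in Q2, immune lists in C1, and smooth muscle genes are lowest in C3. The means of acinar, hypoxia-inducible and immediate early genes do not overlap between diets, as in 7 of the 38 lists. Single genes did not overlap in 6.78% of cases, and no such share was computed for means of other lists. Some of the gaps are slight, such as 8.191 against 8.195 for the nearest arrays of the conjugation genes.

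The rule for the 15 genes in each direction did not use the difference between diets in wild type mice. Wild type arrays did enter it through the shared spread behind each p and through the mean signal. Of the 15 lower genes 5 were also lower in wild type, and their median wild type difference was 0.01. Of the 15 higher genes 4 were also higher in wild type, with a median of -0.06. Btg2 and Atf3 were lower in both genotypes, by -0.48 and -0.44 in POR-null and -0.19 in each case in wild type. The wild type SEs were 0.11 and 0.12, and the wild type arrays of the diets overlapped for both genes. Sorl1 differed by 0.17 in wild type, Elf3 by 0.01, Gna13 by 0.01 and Sdc4 by 1.17. The interaction, which tests whether the difference depends on genotype, was -0.76 (SE 0.19) for Sorl1, -2.75 (SE 0.56) for Sdc4 and -0.54 (SE 0.12) for Dync1h1, each with an adjusted p of 0.998 by limma. It includes the POR-null values that chose these genes. Over all probe sets 0 passed the interaction (0.0%, smallest adjusted p 0.450), and 1073 (4.74%) had an unadjusted p under 0.05. The quercetin difference in wild type had 1165 probe sets (5.15%) at that level, and of all genes 48.9% were lower and 50.7% higher there.

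The lists gave a similar mixture. Hypoxia-inducible genes were lower in 12 of 24 cases in wild type (median 0.01 against -0.11 in POR-null), with Egln3 at 0.22, Bnip3 at 0.05, P4ha1 at -0.05 and Ero1a at -0.13. The interaction for Egln3 was -0.79 (SE 0.29, adjusted p 0.998 by limma). Immediate early genes were lower in 18 of 30 (median -0.07 against -0.06), and chaperones of the endoplasmic reticulum in 23 of 29 (median -0.09 against -0.13). Conjugation genes went the other way, lower in 13 of 16 in wild type (median -0.18 against 0.15), with Sult1a1 at -0.30 and an interaction of 0.87 (SE 0.44, adjusted p 0.998 by limma). Immune and smooth muscle genes, which differ between arrays as described, were opposite or far larger in wild type, with medians of 1.33 for MHC class II and 1.49 for smooth muscle. Pancreatic acinar enzymes were lower in 16 of 20 cases in wild type (median -0.475). Small intestine genes were lower in 18 of 21 there (median -0.51). Both lists had positive medians in POR-null mice. Acinar means were 8.59, 7.37 and 6.62 in the wild type control arrays and 6.68, 7.42 and 6.77 in the wild type quercetin arrays. Whether the list differences depend on genotype was not tested beyond the single genes.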

How the data were processed

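RNA from scraped colon epithelium was hybridised to Affymetrix 430A arrays, and the authors deposited 1 log2 value per probe set and array. Both MAS5 and RMA stand in the submitters' processing notes. Which of them gave these values is not given in the sources used here, and they were used as deposited. Control probe sets were left out. Samples were grouped by title. limma 3.58.1 in R 4.3.3 fitted 4 group means to all 12 arrays (lmFit, then eBayes with an intensity trend, 8 residual and 4.911 prior degrees of freedom). Quercetin minus control diet in POR-null mice, and its interaction with genotype, were tested 2-sided with Benjamini-Hochberg adjustment over 22626 probe sets and a threshold of 0.05. The fit was first run on simulated data with independent noise in each probe set. That run could not test it on shifts shared by many genes of an array, as seen here. The number of arrays limits the precision, and depth has no meaning for them.

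Gene symbols came from GEO's platform annotation, and 20380 probe sets had 1 symbol, 691 several and 1555 none. Several probe sets ending in x_at or s_at may read more than 1 transcript. Genes were named by rule: the 15 of smallest p in each direction and the 5 of widest difference without overlap, all with a mean signal at or above the median of 5.94, up to 4 of smallest p in each list, 9 fixed genes of the xenobiotic response, and genes called with 1 array left out. The mean signal was taken over all 12 arrays, so a gene that was high in only some arrays could pass. Each list gene was read by its brightest probe set. The genes and lists were chosen with earlier results of these data known. Of 900 listed genes 792 were measured. Promoter windows came from RefSeq tables of GRCm38.p6, with 27025 genes.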

Additional observations from a re-analysis of the deposited data

How the results depend on the processing

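By limma 0 probe sets passed the threshold in each fit that kept all arrays, and leaving out 1 array gave 0 to 1 in the quercetin comparison, 0 to 1 in the interaction and 0 to 1 among list members. The 1 call came without quercetin array 1 (Gbp2b among list members, 2.56). Counts at an unadjusted p under 0.05 were 637 in all, 1876 with array weights, 288 when refitted on the probe sets at or above the median signal alone, 336 when refitted on 1 probe set per gene, and 402 without control array 1 and quercetin array 2, an alternative chosen after seeing the data. With 1 array left out they ran from 461 to 1729. Counts without overlap were 1528 in all, 773 above the median signal, 840 with 1 probe set per gene, 2954 to 5734 with 1 array left out and 5291 with both left out, where fewer arrays overlap less often by construction. Replicate numbers did not pair the arrays (correlations of deviations -0.14, 0.05 and -0.08), and with the number as a replicate block 737 probe sets had an unadjusted p under 0.05 and 0 were called.

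Named differences reversed in 19 of 1931 refits. In the main fit those that changed sign included 0.29 for Nr1d1 and -0.20 for Hif1a, so not all of them were small. With array weights Abcg2 was 0.14 and Nr1d1 -0.045, after quantile normalization Car9 was 0.0078, and without control array 1 and quercetin array 2 Hmox1 was -0.02. With 1 array left out the ranges that crossed 0 were -0.12 to 0.062 for Cyp1a1, -0.35 to 0.037 for Abcg2, -0.0083 to 0.13 for Hmox1, -0.47 to 0.067 for Hif1a, -0.0033 to 0.21 for Ak4, -0.26 to 0.078 for Vegfa, -0.11 to 0.063 for Car9, -0.14 to 0.027 for Ier2, -0.057 to 0.093 for Dusp1 and -0.058 to 0.60 for Nr1d1. The cause was not tested. Of 608 list medians 30 moved by more than the spread between replicates.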

Other observations

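The metallothioneins Mt1 and Mt2, which bind zinc and copper, were picked after their values were seen. Mt1 had 10, 10.05 and 10.41 in the control arrays and 10.81, 10.44 and 10.76 in the quercetin arrays of POR-null mice. Mt2 had 9.43, 9.24 and 9.90 against 10.01, 10.11 and 10.73. Both were without overlap. The differences were 0.52 (95% interval 0.03 to 1.01) for Mt1, with 0.38 in a further probe set, and 0.76 (interval 0.15 to 1.37) for Mt2, and neither passed the adjusted threshold. In wild type mice they differed by -0.23 and -0.33.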
